A study of Homo sapiens with 8 samples.

Results

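The genes described here act where fatty acids enter a cell, are activated and are stored: the lipase LIPG, the fatty acid transporter SLC27A6, the acyl-CoA synthetases ACSL1, ACSL3, ACSL4 and ACSL5, the acyltransferase GPAT3, the lipid droplet coat proteins PLIN2 and PLIN3 and the droplet lipase PNPLA2. These 10 genes were named by function and selected with the estradiol-vehicle differences of these arrays already known, so their differences are given as a description, with errors and calls but without p-values. Every probe set whose annotation lists exactly 1 symbol, equal to one of these names, was used, which gave 15 of the 54675 probe sets and 9 of the 19775 genes measured. ACSL3 had no probe set named in the annotation used and was not analysed here.

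Free fatty acids are chemically inert until an acyl-CoA synthetase couples them to coenzyme A. The acyl-CoA is then oxidised, or passed by glycerol-3-phosphate acyltransferases and later enzymes into triglyceride, which is kept in lipid droplets under a coat of perilipins and released by lipases. Perilipin 2 protein is a widely used marker of droplets, and macrophages and granulocytes carry droplets that feed lipid mediator synthesis.

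All groups were K562 cells, an established human line from a chronic myeloid leukaemia, stably transfected with p42 C/EBPa-ER, which is the full-length form of the myeloid transcription factor C/EBPa joined to the oestrogen receptor. The estradiol group received 1 uM beta-estradiol for 6 h, which moves the fusion into the nucleus, and the vehicle group received ethanol for 6 h. Each group held 4 arrays, called biological replicates in the titles. Both groups carried the fusion, in medium without phenol red and with serum stripped on charcoal, and no cells without the fusion were analysed here, so an effect of estradiol itself and one of the fusion cannot be told apart. The sources used here do not say whether the line is 1 clone.

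The values are log2 expression per probe set. Array medians ran from 4.97 to 5.08 and lower quartiles from 3.67 to 3.74. With 4 arrays a group, precision is set by their number. Measured markers of K562 cells (7 genes, the embryonic globin HBZ among them) had vehicle means of 8.54 to 13.97. Of the 7, 3 were called lower with estradiol, beside 9.60% of all genes called lower. TAL1, TFRC, EPOR and HBZ were not called, with log2 differences of 0.08, 0.08, −0.145 and −0.045. GATA1, an erythroid transcription factor, averaged 9.02 with estradiol and 9.92 with vehicle, a log2 difference of −0.89 ± 0.04 (SE). KLF1, another, averaged 9.35 with estradiol and 10.07 with vehicle (−0.71 ± 0.04), and the globin HBE1 13.34 with estradiol and 13.51 with vehicle (−0.17 ± 0.04), a call lost with the mean of its probe sets (limma adjusted p = 0.351), with each array centred on its median (0.0998) and with the replicate block (0.0612). The part of these falls in the differences below was not tested. The 13 measured markers of T cells, B cells, adipocytes and macrophages had vehicle means of 3.10 to 7.99, highest for CD3D. By limma 0 of the 13 were called between the groups, beside 17.9% of all genes. None had an unadjusted limma p below 0.05 (lowest 0.0777). A gene was called where limma's Benjamini-Hochberg adjusted p over all 19775 genes was below 0.05, and where a gene had several probe sets the one with the highest mean stood for it.

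Of the 9 measured genes 7 were higher with estradiol, 0 were lower and 2, ACSL5 and PNPLA2, were not called. Among all genes 17.9% were called, 8.29% upward and 9.60% downward, and because the choice of genes drew on this contrast nothing is read from the comparison. Signals for LIPG, ACSL1, PLIN2 and GPAT3 were more than 4-fold higher, SLC27A6 was 2.25-fold higher, and ACSL4 and PLIN3 were higher by 1.27-fold and 1.17-fold. Estradiol and vehicle values did not overlap for these 7 genes, as for 24.1% of all genes. The median log2 difference was 1.17 over the 9 genes and −0.03 over all genes. In a culture measured as a whole, a change in every cell and a change in a share of the cells cannot be told apart.

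**Figure D1:**
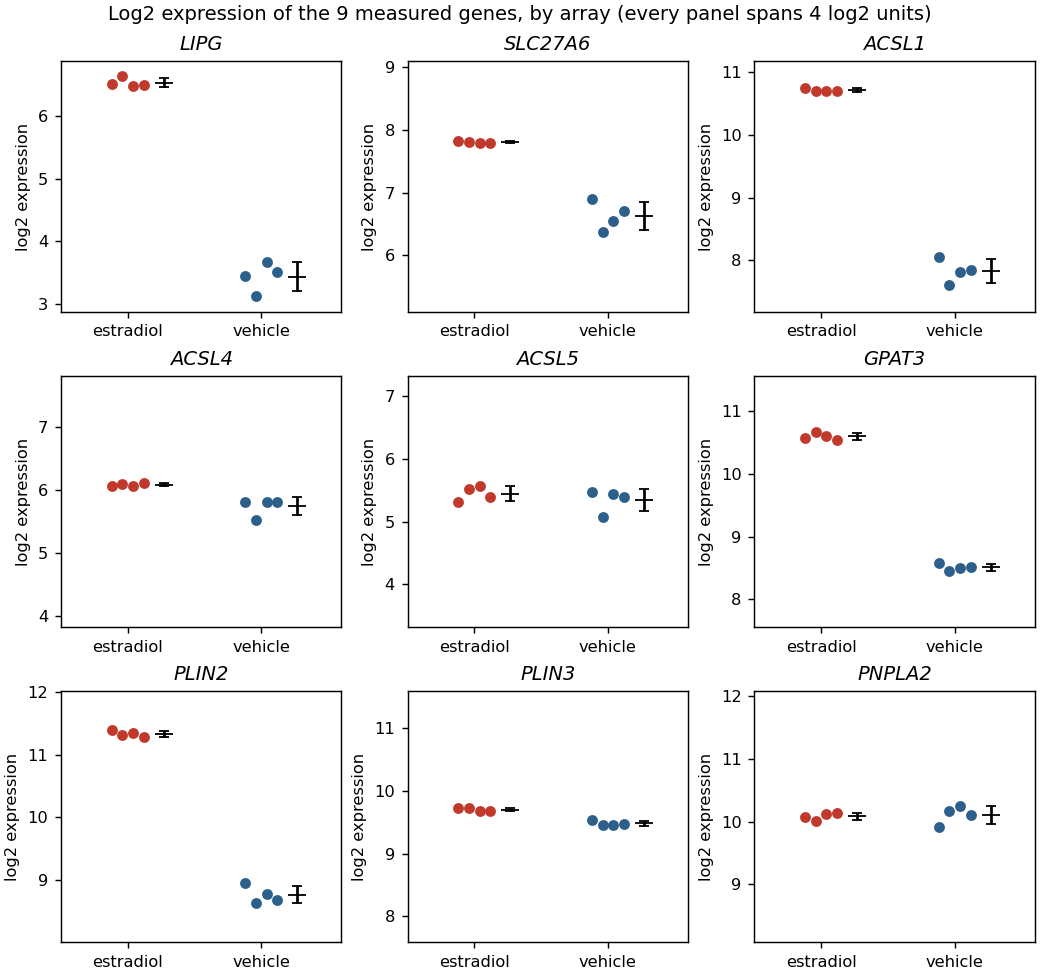
Log2 expression of each measured gene on the 4 estradiol arrays (red, left) and the 4 vehicle arrays (blue, right), with the group mean and SD in black. Every panel spans the same range, and the groups are apart for LIPG, SLC27A6, ACSL1, ACSL4, GPAT3, PLIN2 and PLIN3 and overlap for ACSL5 and PNPLA2.

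LIPG encodes endothelial lipase, a secreted phospholipase that acts on high-density lipoprotein. Its log2 values were 6.51, 6.63, 6.48 and 6.50 on the estradiol arrays, against 3.44, 3.12, 3.66 and 3.52 on the vehicle arrays. The estradiol values lay within a narrow band and the vehicle values near the bottom of the scale, with the vehicle mean at percentile 10.5 of all genes. The difference was 3.10 ± 0.10 (SE), an 8.55-fold higher signal and rank 8 of all genes by difference. The vehicle level was below the lower quartile of the arrays and was not shown to be above background, so the fold is that of the signal.

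SLC27A6, also named FATP6, is a fatty acid transport protein known from the human heart. Its values were 7.82, 7.81, 7.78 and 7.79 with estradiol, against 6.90, 6.37, 6.55 and 6.70 with vehicle. All estradiol values exceeded the highest vehicle value, by at least 0.88, and the vehicle arrays were spread far more widely than the estradiol arrays. The log2 difference was 1.17 ± 0.10 (SE), rank 115 of all genes.

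ACSL1 is the long-chain acyl-CoA synthetase that prevails in fat, liver and heart, and it is induced in activated macrophages. It was measured at 10.76, 10.70, 10.71 and 10.70 on the estradiol arrays, against 8.06, 7.60, 7.82 and 7.84 on the vehicle arrays. The groups were separated by 2.64 between the lowest estradiol and the highest vehicle value. The difference was 2.89 ± 0.08 (SE), 7.40-fold and rank 15 of all genes. The other ACSL1 probe set gave 2.85 ± 0.08, so both probe sets of the gene moved by nearly the same amount.

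ACSL4, the synthetase that prefers arachidonate, had values of 6.07, 6.10, 6.07 and 6.11 with estradiol, against 5.81, 5.52, 5.81 and 5.81 with vehicle. The groups did not overlap, and vehicle replicate 2 stood below the other vehicle arrays. The difference was 0.35 ± 0.07 (SE) with all arrays and 0.28 without vehicle replicate 2. It was called on 1 of 3 probe sets. The other 2 probe sets, with vehicle means of 4.14 and 3.74, differed by 0.40 ± 0.20 and 0.13 ± 0.10 and were not called. With the mean of the 3 probe sets the difference was 0.29 and the call was lost.

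ACSL5, a synthetase of mitochondria and endoplasmic reticulum known from the intestine, had values of 5.31, 5.52, 5.57 and 5.39 with estradiol, against 5.47, 5.07, 5.44 and 5.40 with vehicle. The groups overlapped, with a difference of 0.10 ± 0.10 (SE), and the second probe set gave 0.06 ± 0.07. Neither probe set was called. Without vehicle replicate 2 the difference was 0.01, and with each 1 array left out it ran from 0.01 to 0.15.

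GPAT3 is an acyltransferase of the endoplasmic reticulum that starts glycerolipid synthesis by placing an acyl chain on glycerol-3-phosphate. Its values were 10.58, 10.67, 10.60 and 10.54 on the estradiol arrays, against 8.58, 8.44, 8.50 and 8.51 on the vehicle arrays. Both groups had an SD of 0.06 and were 1.95 apart at their nearest values. The difference was 2.09 ± 0.05 (SE), 4.25-fold and rank 31 of all genes, on the single GPAT3 probe set.

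PLIN2, perilipin 2 or adipophilin, coats lipid droplets in most cell types and is degraded when not bound to one. The values were 11.39, 11.31, 11.34 and 11.28 with estradiol, against 8.95, 8.63, 8.78 and 8.69 with vehicle. The lowest estradiol value lay 2.33 above the highest vehicle value. The difference was 2.56 ± 0.07 (SE), 5.91-fold and rank 21 of all genes. A second PLIN2 probe set stood at 3.49 ± 0.07 (SD, n = 4) with estradiol and 3.53 ± 0.03 with vehicle, below the lower quartile of every array, and differed by −0.03 ± 0.05. With the mean of both probe sets the PLIN2 difference was 1.26.

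PLIN3, perilipin 3 or TIP47, is found in the cytosol and moves to newly formed droplets. It had values of 9.72, 9.72, 9.68 and 9.68 with estradiol, against 9.54, 9.46, 9.46 and 9.47 with vehicle. The groups did not overlap, with 0.14 between the nearest values, and the difference was 0.22 ± 0.04 (SE). PNPLA2, the adipose triglyceride lipase that opens triglyceride breakdown on droplets, had values of 10.08, 10.01, 10.12 and 10.14 with estradiol, against 9.92, 10.17, 10.25 and 10.11 with vehicle. Its groups overlapped, with a difference of −0.03 ± 0.07 (SE), and its other probe set gave −0.04 ± 0.08.

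**Figure D2:**
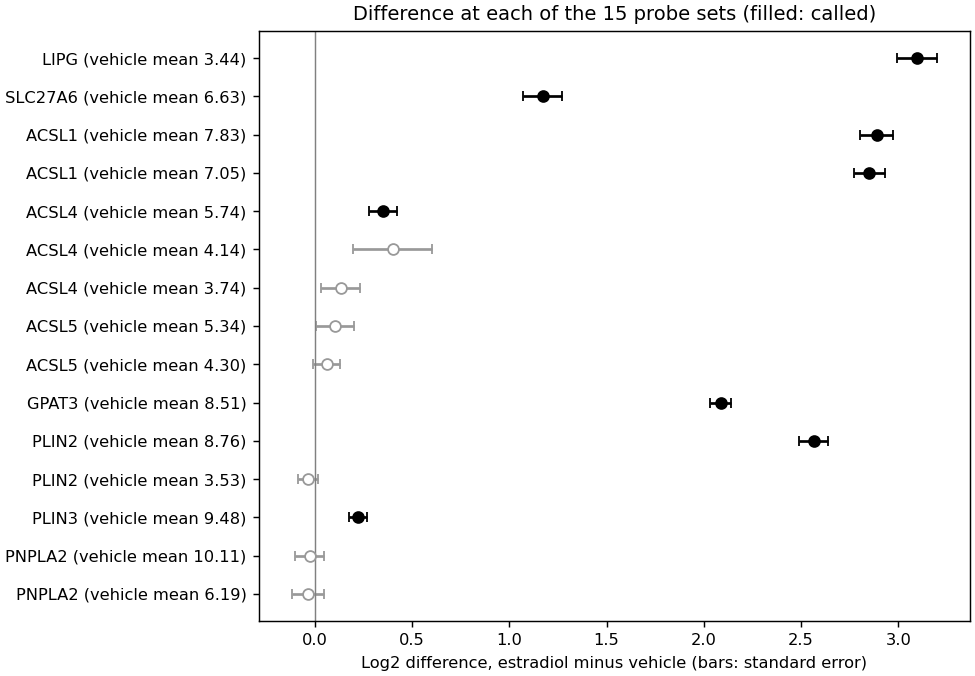
Log2 difference, estradiol minus vehicle, at each of the 15 probe sets, with the standard error as bars and filled points for probe sets called over all probe sets. The label gives the mean on the vehicle arrays, which was 3.53 at the uncalled PLIN2 probe set and 4.14 and 3.74 at the uncalled ACSL4 probe sets.

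Taken singly, 8 of the 15 probe sets were called when all 54675 probe sets were fitted and adjusted together, where 10.4% were called. The 7 others were 2 of ACSL4, 2 of ACSL5, 2 of PNPLA2 and 1 of PLIN2. No probe set of these genes was called lower.

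The ACSL and PLIN families were compared by the difference of 2 isoforms within each array, which shows unequal change and not unequal levels. The log2 value of ACSL1 minus that of ACSL4 ran from 4.59 to 4.68 on the estradiol arrays, against 2.01 to 2.24 on the vehicle arrays. ACSL1 thus changed by 2.54 ± 0.06 (SE) more than ACSL4. For ACSL1 minus ACSL5 the values were 5.14 to 5.45 with estradiol and 2.38 to 2.59 with vehicle, a change of 2.79 ± 0.08 more in ACSL1. The separation of ACSL4 from ACSL5 was small by comparison, at 0.51 to 0.76 with estradiol and 0.34 to 0.45 with vehicle, a change of 0.25 ± 0.07 more in ACSL4. For PLIN2 minus PLIN3 the values were 1.58 to 1.66 with estradiol and −0.82 to −0.59 with vehicle, so PLIN2 changed by 2.34 ± 0.06 more than PLIN3, or by 1.04 more with the mean of both PLIN2 probe sets. In all 4 pairs the estradiol values lay above every vehicle value. The genes were selected with this contrast known and the ACSL pairs share genes, so nothing is read from that count.

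Other measured relatives gave small differences. ACSL6 differed by 0.00 ± 0.06 (SE). Among the perilipins PLIN1, PLIN4 and PLIN5, whose vehicle means were 5.36 to 6.18, the differences ran from −0.03 to 0.01 and 0 were called by limma (lowest unadjusted p = 0.646). The other glycerol-3-phosphate acyltransferases, GPAM, GPAT2 and GPAT4, differed by −0.13 to −0.08 and 0 of the 3 were called (lowest unadjusted p = 0.127), beside 2.09 for GPAT3. Of the 5 other SLC27A transporters 2 were called, SLC27A4 and SLC27A5, both lower, and the 5 differences ran from −0.38 to −0.03, beside 1.17 for SLC27A6. Among 6 other PNPLA lipases PNPLA8, a phospholipase of mitochondria and peroxisomes, was higher by 0.34 ± 0.08 (adjusted p = 0.0150) and the other 5 were not called. The relatives named in this paragraph other than SLC27A4 were chosen by family after their values had been seen.

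**Figure D3:**
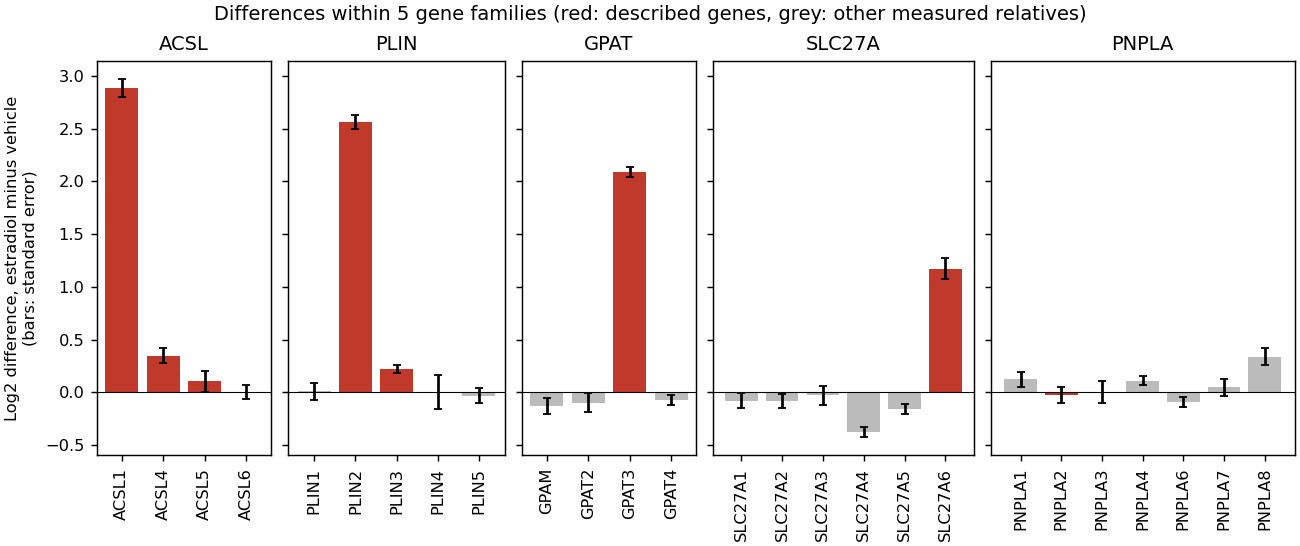
Log2 difference, estradiol minus vehicle, with standard errors, for the measured genes of 5 families. Red bars are the genes described above and grey bars their relatives. ACSL1, PLIN2, GPAT3 and SLC27A6 stand at 2.89, 2.56, 2.09 and 1.17, and the relatives lie between −0.38 and 0.34.

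The fusion contains a DNA-binding factor, and promoters of the 4 genes with the largest differences are shown. Whether these genes share a regulator was not tested. The sequences are the 250 bases before the annotated start from RefSeq (GRCh38.p14), written 5′ to 3′ along the gene's strand, with capitals at matches to TTGCNNAA, a short form of the C/EBP consensus, on either strand. For ACSL1, which has 5 annotated windows, the one with a match is printed, and the others had none.
LIPG (chr18:49561807-49562056, plus strand): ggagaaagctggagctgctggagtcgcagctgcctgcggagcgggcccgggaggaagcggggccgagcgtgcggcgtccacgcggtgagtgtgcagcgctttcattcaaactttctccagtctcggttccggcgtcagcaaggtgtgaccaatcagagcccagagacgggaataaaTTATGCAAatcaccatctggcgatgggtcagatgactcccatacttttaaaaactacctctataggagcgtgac
ACSL1 (chr4:184808532-184808781, minus strand): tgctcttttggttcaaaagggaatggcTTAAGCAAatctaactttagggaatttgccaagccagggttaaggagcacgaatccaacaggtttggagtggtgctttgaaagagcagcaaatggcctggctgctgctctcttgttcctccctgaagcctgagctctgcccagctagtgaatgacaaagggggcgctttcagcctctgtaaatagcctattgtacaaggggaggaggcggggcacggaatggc
PLIN2 (chr9:19127493-19127742, minus strand): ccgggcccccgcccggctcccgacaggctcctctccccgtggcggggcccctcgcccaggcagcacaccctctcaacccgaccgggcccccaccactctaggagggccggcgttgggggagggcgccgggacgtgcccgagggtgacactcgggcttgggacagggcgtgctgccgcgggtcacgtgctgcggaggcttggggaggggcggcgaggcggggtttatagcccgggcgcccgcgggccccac
GPAT3 (chr4:83535857-83536106, plus strand): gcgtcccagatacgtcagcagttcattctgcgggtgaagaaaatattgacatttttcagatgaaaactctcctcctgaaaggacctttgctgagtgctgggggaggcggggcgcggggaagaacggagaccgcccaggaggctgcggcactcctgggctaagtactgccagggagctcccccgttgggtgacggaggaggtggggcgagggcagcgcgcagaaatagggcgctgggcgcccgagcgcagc

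In windows of 300 bases, from 250 before to 50 after each start, TTGCNNAA occurred in 2 of the 15 windows of the 9 genes. It was also found in 10.5% of all 35116 windows. Those 2 windows belonged to LIPG, with the match beginning 74 bases before the start, and ACSL1, 223 bases before one of its starts, both on the opposite strand. PLIN2 and GPAT3 had no match in these windows. The uninterrupted palindrome TTGCGCAA was in 0 of the 15 windows and in 0.2% of all windows. AGGTCA, a motif that several nuclear receptors bind in pairs, occurred in 2 of the 15 windows, those of ACSL5 and PNPLA2, and in 13.8% of all windows. By window the matched shares were near those of all windows. Counted by gene, each of these 2 motifs was in 2 of the 9 genes. Among all genes with such windows TTGCNNAA was in 12.7% and AGGTCA in 16.5%. From counts of 2 nothing is read, and a match is a stretch of letters and not a site of binding.

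The vehicle arrays differed more among themselves than the estradiol arrays did. The SD over vehicle arrays exceeded that over estradiol arrays in 8 of the 9 genes, as in 62.3% of all genes and 78.6% of genes called upward. Among the vehicle arrays replicate 2 was the lowest in 8 of the 9 genes, as in 43.6% of all genes and 71.6% of genes called upward, and it also had the lowest array quality weight, 0.344, where weights reached 1.97. Replicate 1 was the highest vehicle array in 6 of the 9 genes, as in 34.3% of all genes and 60.2% of genes called upward. In the 5 genes past a 2-fold difference, vehicle replicate 2 deviated from its group mean by −0.32 to −0.07, and the estradiol arrays by −0.06 to 0.10. Without vehicle replicate 2 the differences were 2.99 for LIPG, 2.81 for ACSL1, 2.52 for PLIN2, 2.07 for GPAT3 and 1.09 for SLC27A6.

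**Figure D4:**
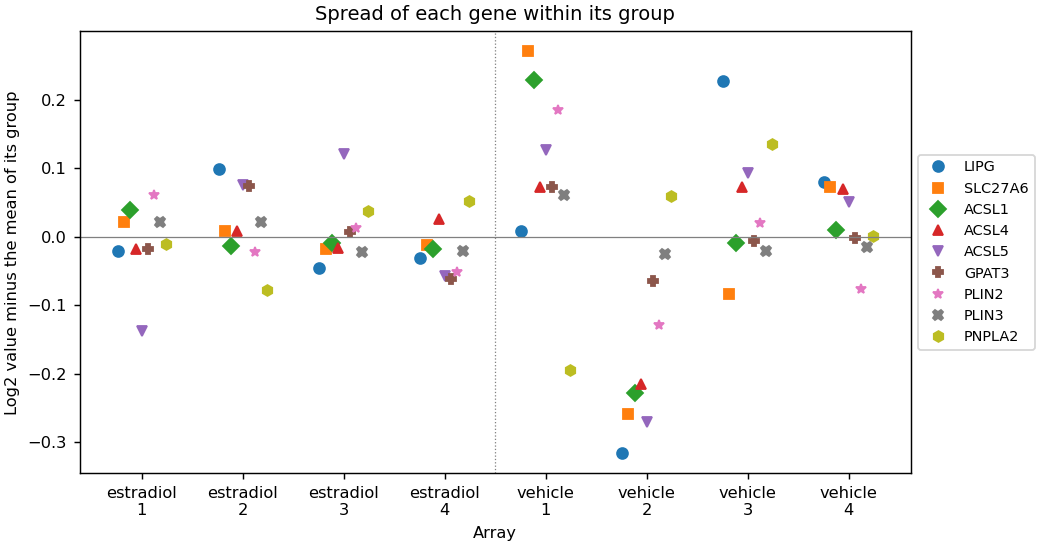
Log2 value of each measured gene on each array minus the mean of its own group, estradiol arrays on the left and vehicle arrays on the right of the dotted line. Vehicle replicate 2 lies below its group mean for 8 of the 9 genes, down to −0.32 for LIPG.

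Of 147 other genes in 6 lists 135 were measured, and 16 were higher and 13 lower with estradiol, or 21.5% called, beside 17.9% of all genes. Each array centred on its median gave 15 higher and 8 lower, quantile normalization over again 15 and 18, and the robust fit with a variance trend 17 and 17. The median difference was −0.01. The lists were chosen with earlier results of these data known, so nothing is read from the shares called. The adjusted p-values below, mostly of genes picked by the size of their difference, are given as a description. At the brightest probe set of each gene the differences reached 0.94 and 0 of the 135 were 2-fold, and with the mean of probe sets 1 was, SOAT1 at 1.07. Among all 19775 genes 184 were 2-fold at the brightest probe set, 152 of them upward, so few would be looked for among 135.

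Synthetases and uptake proteins outside the genes above were mostly not called (26 measured, 1 higher and 4 lower, median −0.02). ACSS1, which makes acetyl-CoA in mitochondria, fell to 7.17 ± 0.05 (SD, n = 4) with estradiol, against 7.67 ± 0.05 with vehicle, a change of −0.50 ± 0.04 (SE, limma adjusted p = 6.07e-05). Of its 5 probe sets 2 were called, and the mean of all 5 gave −0.17 (adjusted p = 0.0301). SLC27A4, a fatty acid transporter with synthetase activity, was lower by −0.38 ± 0.05 (adjusted p = 0.000470). ACSM3, a medium-chain synthetase, was higher by 0.27 ± 0.06 (adjusted p = 0.0111). FABP5, a cytosolic fatty acid carrier, fell by 0.23 on the log2 scale and SLC27A5, a liver transporter that also activates bile acids, by 0.16, both named after their values had been seen. The SLC27A5 call was lost with the mean of its probe sets (adjusted p = 0.0967) and with each array centred on its median (0.170). It was also lost with the replicate block (0.0899) and in 6 of the 8 fits without 1 array. The FABP5 call was lost with each array centred on its median (0.0579). CD36, a fatty acid receptor, averaged 4.10 ± 0.12 (SD, n = 4) with estradiol and 4.22 ± 0.10 with vehicle and was not called.

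Of 20 genes in the droplet list 2 were higher and 3 lower (median −0.01). HSD17B11, a dehydrogenase that resides on droplets, rose to 10.48 ± 0.02 (SD, n = 4) with estradiol, against 9.59 ± 0.11 with vehicle, or by 0.89 ± 0.06 (SE, adjusted p = 8.34e-06). HILPDA, a droplet protein that inhibits PNPLA2, was lower by −0.30 ± 0.05 (adjusted p = 0.00263). UBXN8, in this list but a membrane protein of the endoplasmic reticulum, was lower by −0.30 ± 0.04 (adjusted p = 0.00146). SPART was higher by 0.15 and LDAF1, a partner of seipin, lower by −0.29, both named after their values had been seen. With the mean of its probe sets SPART stood at −0.004 and was not called (adjusted p = 0.982). Its call was also lost with the replicate block (adjusted p = 0.115) and in 7 of the 8 fits without 1 array. LDAF1 was not called with the replicate block (adjusted p = 0.0609). HILPDA was called at 1 of its 2 probe sets, the other at −0.26.

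In glycerolipid and sterol ester synthesis 1 of 20 genes was higher and 1 lower (median −0.07). SOAT1, which esterifies cholesterol for storage in droplets, rose to 9.05 ± 0.02 (SD, n = 4) with estradiol, against 8.11 ± 0.12 with vehicle, and differed by 0.94 ± 0.06 (SE, adjusted p = 8.3e-06). All 3 of its probe sets were called higher, by 0.94 to 1.24. AGPAT5, an acyltransferase that follows GPAT in the pathway, was lower by −0.42 ± 0.04 (adjusted p = 0.000168). DGAT1 and DGAT2, which complete triglyceride, differed by −0.14 ± 0.04 and 0.09 ± 0.08 and were not called.

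Among 26 genes listed as lipases and cofactors 3 were higher and 3 lower (median 0.01). The lower ones included LIPT1, a lipoyltransferase and not a lipase, at −0.31, named after its value had been seen. ABHD5, the protein that activates PNPLA2 on droplets, rose to 9.67 ± 0.04 (SD, n = 4) with estradiol, against 8.89 ± 0.09 with vehicle, or by 0.78 ± 0.05 (SE, adjusted p = 1.41e-05), and 3 of its 4 probe sets were called. LIPH, a phospholipase selective for phosphatidic acid, was higher by 0.65 ± 0.06 (adjusted p = 6.8e-05), at 1 of its 2 probe sets, and by 0.42 with their mean. ABHD6, a monoacylglycerol lipase, was lower by −0.47 ± 0.08 (adjusted p = 0.00348). LPL, the lipoprotein lipase related to LIPG, differed by 0.15 ± 0.08 and was not called.

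Fatty acid oxidation genes had 7 higher and 1 lower of 27 measured (median 0.07), or 29.6% called, beside 17.9% of all genes. With only genes at or above the median level tested, 4276 were called, against 3538 of all 19775. The share called was therefore larger among brighter genes than the 17.9% of all genes. Whether the share of this list exceeds that of equally bright genes was not tested. HSD17B4, the D-bifunctional protein of peroxisomes, rose to 9.86 ± 0.01 (SD, n = 4) with estradiol, against 9.18 ± 0.07 with vehicle, or by 0.68 ± 0.05 (SE, adjusted p = 1.27e-05). Its other probe set, with a vehicle mean of 2.64, gave 0.07 and was not called, and the mean of both gave 0.37. CPT2, the inner-membrane carnitine palmitoyltransferase, was higher by 0.46 ± 0.06 (adjusted p = 0.000455) and ACAA2, a mitochondrial thiolase, by 0.40 ± 0.05 (adjusted p = 0.000945). For ACAA2 1 of 3 probe sets was called, and the mean of all 3 gave 0.17 (adjusted p = 0.0301). The single gene called lower, named after its value had been seen, was CPT1A, which controls the entry of long acyl chains into mitochondria, at −0.37 ± 0.08 (adjusted p = 0.00913), and at −0.17 with the mean of its probe sets (adjusted p = 0.0335).

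Among 16 thioesterases and acyl-CoA binding proteins 2 were higher and 1 lower (median −0.01). DBI, the acyl-CoA binding protein, stood at 11.30 ± 0.01 (SD, n = 4) with estradiol and 10.81 ± 0.07 with vehicle, and its 3 probe sets rose by 0.47 to 0.51. ACOT9, a mitochondrial thioesterase, was higher by 0.27 ± 0.05 (adjusted p = 0.00387). ACBD5, a peroxisomal membrane protein, was lower by −0.24 ± 0.06 (adjusted p = 0.0162), a call that was lost with each array centred on its median (adjusted p = 0.0595), with the mean of its probe sets (adjusted p = 0.182) and without estradiol replicate 4 or vehicle replicate 3 or 4 (adjusted p from 0.0514 to 0.0529).

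**Figure D5:**
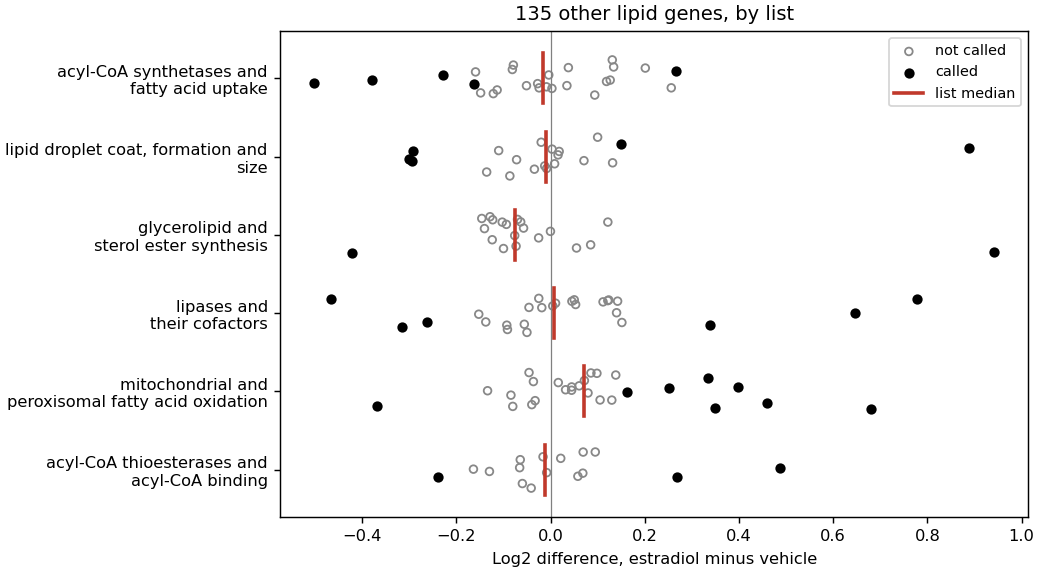
Log2 difference, estradiol minus vehicle, of 135 other lipid genes in 6 lists, with filled points for called genes and a red line at each list's median. List medians lie between −0.07 and 0.07, and 29 genes were called.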

How the data were processed

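Total RNA (200 ng a sample, per the labels' protocols) was amplified, biotin-labelled and hybridised, with 4 estradiol and 4 vehicle arrays. Per the submitters' processing notes, the authors used RMA, and the deposited values are on the log2 scale. RMA equalises the distributions of the arrays, so a change common to most genes would not show, and it compresses changes of dim genes. No detection calls were used, and the sources used here do not name the array definition. Probe sets were named through the platform annotation, where 41097 of 54675 had 1 symbol, and symbols were checked through gene identifiers in RefSeq (0 changed).

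Each of 19775 genes was represented by its brightest probe set (mean of the 8 arrays). Limma 3.58.1 (lmFit and eBayes, R 4.3.3) tested estradiol minus vehicle, two-sided, with no filter or covariate, and Benjamini-Hochberg adjustment over all genes. A second fit took every probe set. Errors of differences are moderated standard errors; those of isoform differences come from the SDs over arrays. P-values reflect only how far these samples vary. The fit was tested on simulated data with 50 changes of each size and noise drawn independently for each gene and array. Far fewer genes changed there than the 3538 called here, so the recovery need not hold for these arrays. The fit recovered 14 changes of 0.25, 37 of 0.5, 49 of 1 and 50 of 2 log2 units, with 8 false calls. A gene that was not called may therefore have changed by a small amount. Figures used matplotlib 3.10.9.

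The genes described and the lists of other lipid genes were chosen with earlier results of these data known. From each list up to 3 called genes with the largest difference and groups that did not overlap were named. Alternatives were the replicate number as a block, 3 scalings, a filter on dim genes, the mean of probe sets, array weights, a robust fit with a variance trend, each array left out and a threshold of 0.01.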

Additional observations from a re-analysis of the deposited data

Results flagged for a closer look

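Single arrays stood apart from the other 3 of their group, by the gap to the nearest array over the group's range, in 7 of the 52 groups of 4 examined for the described and named genes, where about 5% of groups are flagged by chance. LIPG in estradiol replicate 2 was 6.63, against 6.48 to 6.51 in the other estradiol arrays. ACSL1 in estradiol replicate 1 was 10.76, against 10.70 to 10.71. ACSL4 in vehicle replicate 2 was 5.52, against 5.81 in each of the other vehicle arrays. PLIN3 in vehicle replicate 1 was 9.54, against 9.46 to 9.47. ABHD6 in estradiol replicate 2 was 5.97, against 6.21 to 6.25. HSD17B4 in estradiol replicate 4 was 9.88, against 9.85 in the others, and in vehicle replicate 2 it was 9.07, against 9.20 to 9.23 in the other vehicle arrays.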

How the results depend on the processing

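The 7 calls among the described genes were the same in number with the replicate block, under all 3 other scalings, with the trend, with array weights, at a threshold of 0.01 and without any 1 array. The count was 6 with the mean of probe sets, where ACSL4 was lost, and 5 with dim genes left out, where LIPG, ACSL4 and ACSL5 were not tested. The uncalled PNPLA2 difference turned to 0.0004 with each array centred on its median and ran from −0.091 to 0.019 with 1 array left out. The PLIN2 minus PLIN3 change moved to 1.04 with the mean of probe sets. Calls among the 135 other lipid genes, 29 in the main fit, ran from 24 to 31 with 1 array left out. They numbered 35 with dim genes left out, where fewer were tested, 34 with the trend and 33 with quantile normalization over again. At the threshold of 0.01 they numbered 19, with 8 lower, and 8 were lower with each array centred on its median. Same-numbered arrays had correlations of their deviations from −0.24 to 0.10, so the numbers were not taken as pairs. The replicate block gave 22 calls, 13 higher and 9 lower. Among genes named by the size of their difference, ACSM3 (limma adjusted p = 0.0580) and ACBD5 (0.0624) were lost. Losses among genes named after their values had been seen included SLC27A5 (0.0899), SPART (0.115) and LDAF1 (0.0609). Levels near the lower quartile, such as LIPG with vehicle, limit what a fold can show.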
